A study of Homo sapiens with 12 samples.

Results

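The 7 long non-coding RNAs NEAT1, MALAT1, KCNQ1OT1, TUG1, OIP5-AS1, NORAD and GAS5 were followed through an m6A map of gastric cancer cells. They were found by gene name in the authors' deposited table of differential m6A peaks and in both of their peak lists. All 7 had a peak in the control list, 6 had one in the knockdown list, and 4 of the 7 were among the 6396 genes of the differential table, which is the file with expression values. By gene name they held 21 of the 28891 knockdown peaks, 60 of the 39492 control peaks and 12 of the 8970 differential rows. HGC27, an established cell line from a human gastric carcinoma, was used throughout, and the series asks how FTO, an enzyme that removes the methyl group of N6-methyladenosine (m6A), acts in gastric cancer. The FTO knockdown cells carry titles with sh and a genotype label that reads FTO-KO, while the protocol speaks of a knockdown. The control cells carry titles with WT and Con and a genotype label that reads WT, and no control hairpin is named. Each condition had 3 IP libraries, made from RNA fragments bound by an m6A antibody, and 3 input libraries, made from fragments before enrichment. The labels do not say whether libraries came from separate cultures or hairpins. The p-values of the expression test can speak only of the spread among these libraries, some or all of which may be technical. Those of peaks and of differential m6A are the authors' own, and the sources used here do not say what spread they measure.

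m6A is written onto adenosines of messenger and long non-coding RNA by a methyltransferase complex and can be removed by FTO or ALKBH5. Reader proteins of the YTH, HNRNP and IGF2BP families bind RNA that carries it or RNA whose folding it alters. NEAT1 is the scaffold of paraspeckles, nuclear bodies built from RNA-binding proteins such as SFPQ, and MALAT1 collects in nuclear speckles, where splicing factors are stored. KCNQ1OT1 is made from one parental copy and silences neighbouring genes of an imprinted region, NORAD binds Pumilio proteins, and GAS5 is a host of small nucleolar RNAs. OIP5-AS1, also called Cyrano, and TUG1 are widely expressed in human tissues.

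FTO RNA stood at 0.786, 0.830 and 0.765 FPKM (fragments scaled to transcript length and library size) in the knockdown input libraries, against 5.48, 5.68 and 5.52 FPKM in the control input libraries. The difference by limma was -1.87 on the log2(FPKM + 1) scale (adjusted p = 4.99e-07). FPKM summed over the listed genes to between 83712 and 86902 in knockdown libraries and between 74289 and 78461 in control libraries, and sequencing depth is unknown. Gastric and epithelial identity could be read from few genes: of 5 gastric markers MUC1 alone had expression values, at 1.19 to 1.61 FPKM in knockdown and 1.19 to 1.26 FPKM in control libraries, and none of 5 epithelial markers had any. The fibroblast list had values for 2 of 5 markers. COL1A1 stood at 138 to 154 FPKM in knockdown and 165 to 176 FPKM in control libraries, and THY1 at 14.4 to 15.4 FPKM in knockdown and 11.8 to 12.9 FPKM in control libraries, and their part in the results was not tested.

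Input RNA of NEAT1, MALAT1 and KCNQ1OT1 was lower after FTO knockdown, and that of NORAD did not pass the test. The test covered 4515 genes, those that averaged 1 FPKM or more over the 6 libraries, and 37.9% of them were called lower and 24.5% higher at an adjusted p under 0.05 (limma on log2(FPKM + 1), Benjamini-Hochberg adjustment), and the median difference over all of them was -0.07. Of the called genes 39.3% were higher with the deposited scaling, 52.3% after quantile normalization and 55.4% after median-centring. With the deposited scaling and a minimum mean of 5 FPKM, 51.8% of the called genes were higher, so the shares over all tested genes depend on the level of the genes. The 3 lower calls among 4 members therefore stand beside a background in which lower calls were common. In 40.5% of the tested genes all 3 knockdown libraries lay below all 3 control libraries.

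NEAT1 had 20.1, 18.6 and 19.5 FPKM in knockdown libraries, against 29.4, 29.5 and 27.5 FPKM in control libraries. Every knockdown value lay below every control value, and the mean of 19.4 ± 0.779 FPKM in knockdown was 0.673 of the 28.8 ± 1.12 FPKM of controls (SD, n = 3 each). The log2(FPKM + 1) difference was -0.55 (SE 0.0464, limma adjusted p = 5.42e-05). In bulk RNA, fewer cells that make an RNA and less of it per cell cannot be told apart.

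MALAT1 had 306, 336 and 343 FPKM in knockdown libraries, against 438, 428 and 411 FPKM in control libraries. It was the most abundant of the 4, ranking 10th of 6396 listed genes by its knockdown mean and 8th by its control mean. The groups did not overlap, with means of 328 ± 19.4 FPKM in knockdown and 426 ± 13.7 FPKM in control (SD, n = 3 each). The log2(FPKM + 1) difference was -0.38 (SE 0.0563, limma adjusted p = 0.000752).

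KCNQ1OT1 was present at 0.997, 0.988 and 1.04 FPKM in knockdown libraries, against 2.11, 2.15 and 1.88 FPKM in control libraries. Its level put it at rank 4372 of the listed genes by the knockdown mean and at rank 3823 by the control mean, so it was not abundant in these cells. The groups did not overlap, the means differed 2.03-fold, and the log2(FPKM + 1) difference was -0.60 (SE 0.0564, limma adjusted p = 8.04e-05). With a pseudocount of 0.1 FPKM the value was -0.95, since the addition of 1 FPKM narrows differences at this level. KCNQ1OT1 lies within KCNQ1 on the opposite strand, and the sources used here do not say whether the counting used strand, so its reads and those of KCNQ1 introns cannot be told apart.

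NORAD had 22.9, 23.5 and 23.5 FPKM in knockdown libraries, against 24.4, 24.9 and 23.0 FPKM in control libraries. These ranges overlapped, and the difference of -0.05 on the log2(FPKM + 1) scale was about the size of its standard error (SE 0.0419, limma adjusted p = 0.369); it was 0.05 after median-centring. The libraries were made from poly(A) RNA. MALAT1 and the long form of NEAT1 end in a triple helix in place of a poly(A) tail, so their FPKM describe what this selection kept.

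**Figure D1:**
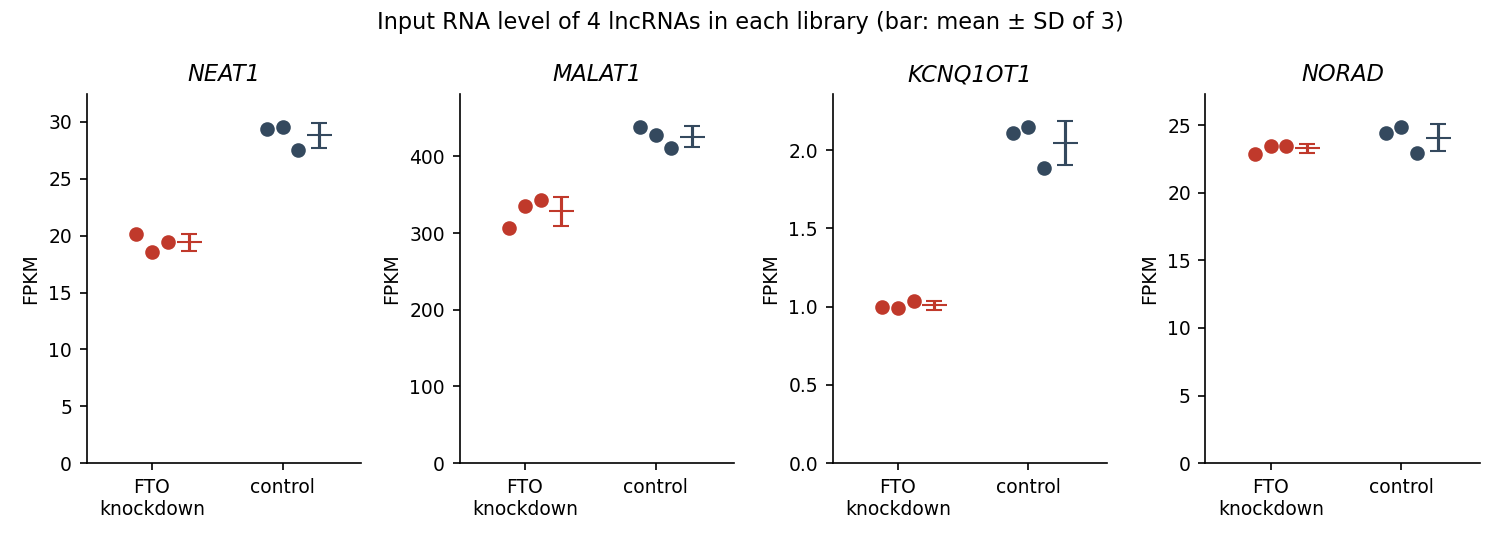
Input FPKM (linear axis from 0) of NEAT1, MALAT1, KCNQ1OT1 and NORAD in each of 3 FTO knockdown and 3 control libraries, with the mean and SD of each group beside the points. Knockdown points lie below all control points for NEAT1, MALAT1 and KCNQ1OT1, and overlap them for NORAD.

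The genes whose 6 centred log2(FPKM + 1) values lay nearest to those of each lncRNA were named as a description. Nearest to NEAT1 were FAM114A1 (Euclidean distance 0.0507), the neurotrophin receptor gene NTRK2 (0.0518) and the tubulin ligase-like gene TTLL3 (0.071). Nearest to MALAT1 were LINC01176 (0.0557), the oxygen-sensing prolyl hydroxylase gene EGLN1 (0.0681) and the phosphatase gene INPP4A (0.0706). Nearest to KCNQ1OT1 were PRKAG1 (0.0485), which encodes a subunit of AMP-activated protein kinase, GARS1-DT (0.0508) and the potassium channel gene KCNMA1 (0.0544). Nearest to NORAD were the elongation factor gene ELL2 (0.0272), the acetyltransferase gene KAT6A (0.0338) and HOXC6 (0.035).

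The peak lists give 1 set of peaks per condition, each with the authors' own fold enrichment of IP over input, so enrichments are ranked within a list and set side by side without a test. The median enrichment over the whole list was 7.05 in knockdown and 6.11 in control. Peaks with an unadjusted p of up to about 0.05 were listed. The gene name of a peak can differ from the gene model on which it was called, which was the case for 21.7% of knockdown and 22.6% of control peaks. For member peaks such a difference is stated, and the other gene is named where a symbol was at hand. Every member peak lay on 1 block except a control peak of OIP5-AS1 with 2. Positions are on GRCh38, gene spans are those of RefSeq, and peaks lie in exons of the annotation in the lists unless a UTR is named.

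NEAT1 (chr11:65422798-65445540, plus strand) carried the most enriched peaks of the 7 RNAs in both lists, all but one of its regions within the first 3.54 kb, the 5′ part that its short and long forms share. Around its start, at chr11:65422774-65423223, a peak had an enrichment of 17.4 in knockdown and 21.5 in control. The next region was a single control peak of 1796 bases at chr11:65423492-65425287 with an enrichment of 82.3. In the knockdown list, 3 separate peaks lay inside that interval: chr11:65423522-65424150 at 10, chr11:65424270-65424688 at 3.85 (listed under the name AP000944) and chr11:65424928-65425047 at 117. The narrow peak at 117 ranked 68th of the knockdown list. Another region, chr11:65425975-65426334, had a control peak at 4.46 and no knockdown peak.

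The knockdown regions in the body of NEAT1 and the control regions there were each listed a second time with nearly the same limits. The second listing of the wide control peak had 82.6 and ranked 39th of the control list, while that of the narrow knockdown peak had 84.1, ranking 119th, against 117 in the first. Near the 3′ end, 21.4 kb from the start, a short peak stood at 1.97 in knockdown and 1.76 in control under the name MIR612. Another peak bore the name of NEAT1 but lay about 10 kb upstream in the 3′ UTR of FRMD8, with 11.4 in knockdown and 8.48 in control.

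MALAT1 (chr11:65497738-65506516, plus strand) had 1 knockdown peak and 3 control peaks by name. The knockdown peak, chr11:65499364-65500770, had an enrichment of 6.60 and lay 1.63 to 3.03 kb from the RefSeq start. The control peak around it, chr11:65499035-65501010, had 9.41. The control list held 3 further peaks on MALAT1: chr11:65502416-65503134 at 6.57, chr11:65504032-65504152 at 1.16 and, under the name AP000769, chr11:65505858-65506037 at 1.19. No knockdown peak overlapped these 3. Although MALAT1 RNA was far more abundant than NEAT1 RNA, its highest enrichment had 47.5% of the knockdown list and 71.8% of the control list below it, against 99.8% and 99.9% for NEAT1.

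NORAD (chr20:36045618-36050960, minus strand) had its strongest peak at the 5′ end in both lists. The knockdown peak, chr20:36049854-36051018, had an enrichment of 29.9 and the control peak, chr20:36049616-36051018, had 22.6, which ranked 1233rd of the knockdown list and 1639th of the control list. At the opposite end, a control peak at chr20:36045618-36045767 had 1.92 and no knockdown peak overlapped it.

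The sequence at 3 transcript starts of RefSeq, of which those of MALAT1 and OIP5-AS1 lie inside the gene span, is shown because a peak boundary falls there, and RefSeq holds the bases around it (GRCh38.p14, 5′ to 3′ on the RNA strand). Capitals mark bases inside a called peak and lower case the 40 bases before it. In NORAD (chr20:36050911-36051058, minus strand) the 108 capital bases lie in the peaks of both lists. Those beyond chr20:36050960 lie upstream of the RefSeq start of NORAD, so part of the stretch is outside the RefSeq gene. In MALAT1 (chr11:65498995-65499094, plus strand) the 60 capital bases lie in the control peak alone. In OIP5-AS1 (chr15:41283950-41284039, plus strand) the 50 capital bases lie in the knockdown peak alone.
NORAD: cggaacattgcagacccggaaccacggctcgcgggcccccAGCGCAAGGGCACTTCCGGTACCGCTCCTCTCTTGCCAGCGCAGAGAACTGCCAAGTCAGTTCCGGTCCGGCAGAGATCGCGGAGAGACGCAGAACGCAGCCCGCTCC
MALAT1: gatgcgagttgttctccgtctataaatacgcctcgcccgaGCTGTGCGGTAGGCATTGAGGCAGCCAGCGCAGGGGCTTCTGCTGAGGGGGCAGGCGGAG
OIP5-AS1: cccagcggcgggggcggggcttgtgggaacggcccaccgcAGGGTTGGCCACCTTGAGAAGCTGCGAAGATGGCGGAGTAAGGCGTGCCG

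GGAC, a core of the sequence in which m6A is often placed, was searched in the capital bases on both strands. On the RNA strand none of the 3 stretches held it. On the opposite strand NORAD held 1. Of 35116 RefSeq windows cut to the same place and length, 34.6% held GGAC on the RNA strand for the NORAD length, 21.9% for the MALAT1 length and 18.9% for the OIP5-AS1 length, and 33.0%, 20.4% and 17.6% held it on the opposite strand. The remainder of each peak lies beyond these windows, and other forms of the m6A site were not searched.

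TUG1 (chr22:30969265-30979395, plus strand) had 4 knockdown and 4 control peaks by name, and more that were called on its gene model under the name AC004542. Close to the start a peak stood at 24.1 in knockdown (chr22:30969634-30969814) and at 10.4 in control (chr22:30969604-30969814). Further on, knockdown peaks at 4.37 and 17.2 (chr22:30970712-30971012 and chr22:30971101-30971730) lay inside 1 control peak at 15.0 (chr22:30970652-30971760). Small gene models inside that region gave 1 more peak in knockdown, at 9.70, and 2 more in control, at 3.71 and 13.1. Over the last part of the RNA, the control list held 1 peak of 7.72 from chr22:30975203 to 30979096, and the knockdown list held 5 peaks within it at 5.42 to 10.1. A region about 4 kb from the start had a peak at 6.12 in knockdown and at 9.46 in control. All knockdown peaks on TUG1 overlapped a control peak. RefSeq types TUG1 as protein-coding, and the lists place all of its peaks but the first in a 3′ UTR.

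OIP5-AS1 (chr15:41282697-41313338, plus strand) had weak peaks under its own name, at 2.93 (chr15:41283990-41284170) and 2.43 in knockdown and at 2.29 (chr15:41284110-41284230) and 1.72 in control, the last in the 3′ UTR of CHP1. The peak at 2.43 was called on another gene model, for which no symbol was at hand. The strongest peaks of OIP5-AS1 carried the name AC087721 and were called on the OIP5-AS1 model in the middle of the gene. They were chr15:41298203-41298982 at 10.2 and chr15:41299072-41299551 at 61.9 in knockdown, and chr15:41297154-41299761 at 28.3 in control. The peak at 61.9 ranked 223rd of the knockdown list and that at 28.3 ranked 806th of the control list. By gene name alone this region is missed. A weak control peak at chr15:41286056-41286266 (1.46, also under the name AC087721 and listed in a 5′ UTR) had no knockdown counterpart.

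GAS5 (chr1:173863901-173869045, minus strand) had no knockdown peak and 1 control peak, chr1:173865065-173865155, with an enrichment of 1.65 that was above only 4.35% of the control list.

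**Figure D2:**
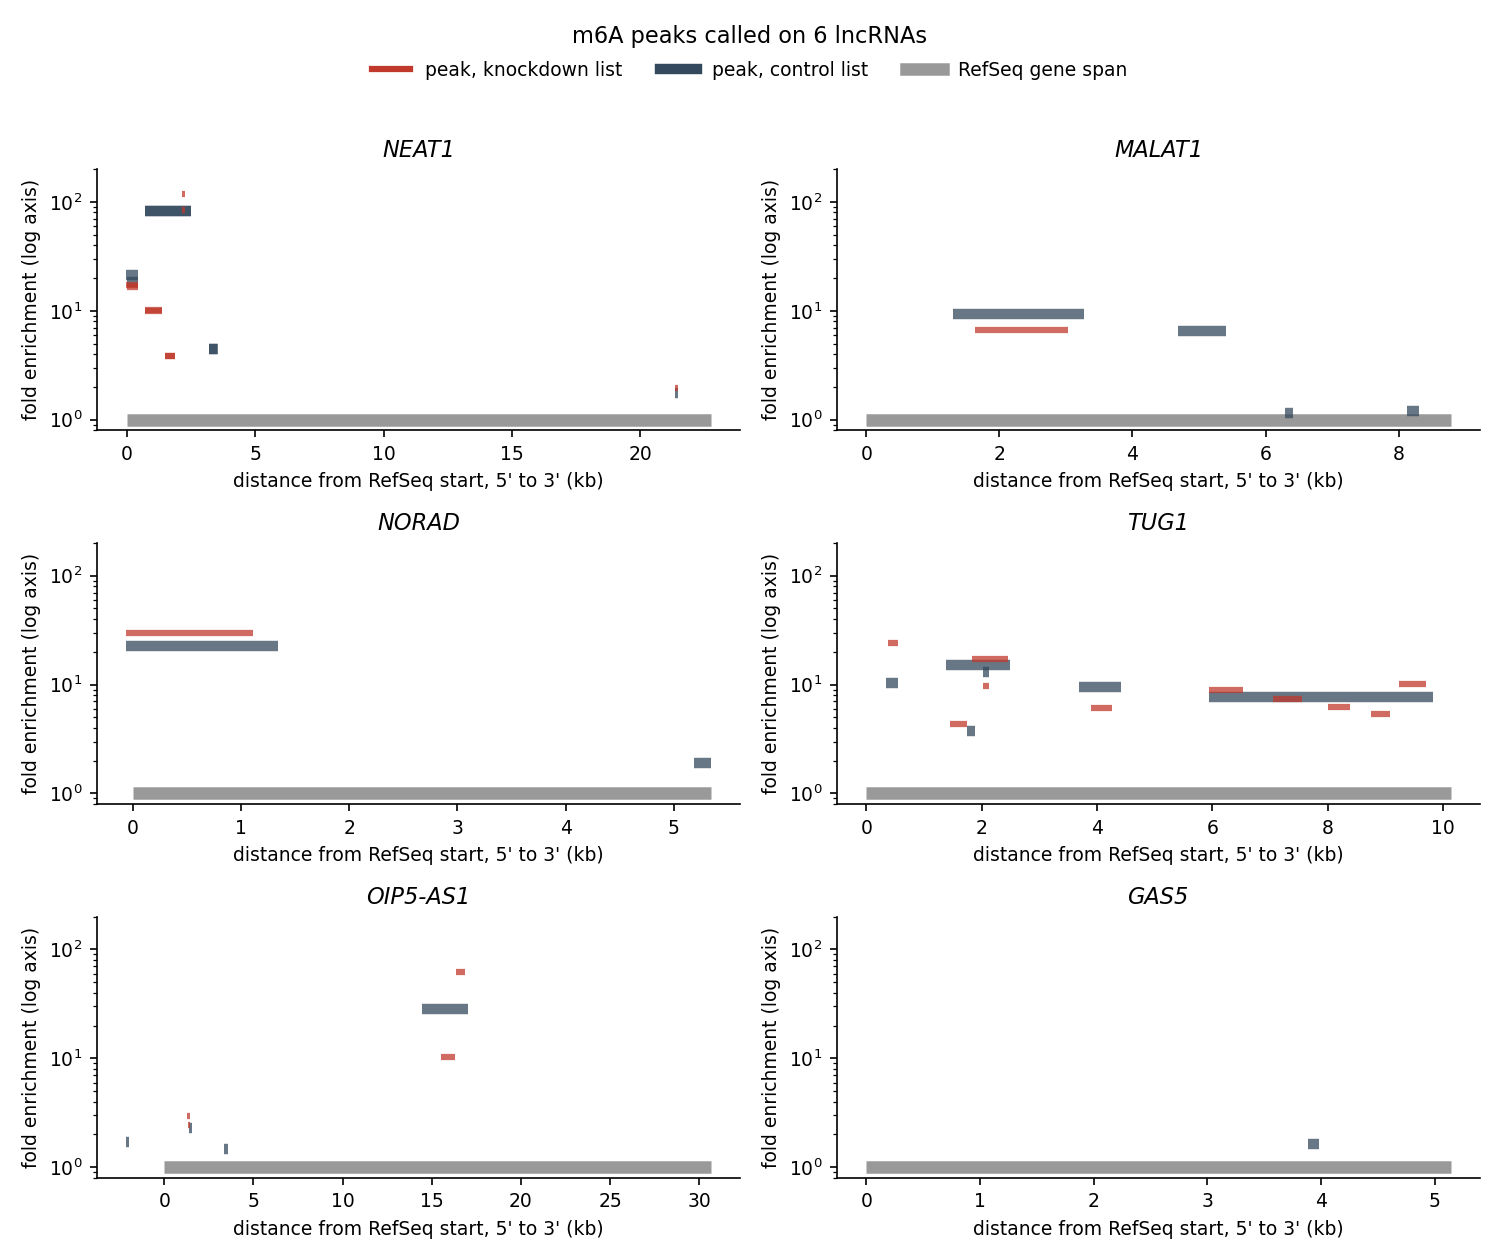
m6A peaks on NEAT1, MALAT1, NORAD, TUG1, OIP5-AS1 and GAS5, by gene name or gene model, with distance from the RefSeq start in kb on the x axis and the authors' fold enrichment on a log y axis, knockdown in red and control in dark blue. The peak named NEAT1 in FRMD8 is left out; the wide control peaks of NEAT1, TUG1 and OIP5-AS1 face several narrower knockdown peaks.

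KCNQ1OT1 (chr11:2608328-2699994, minus strand) held 6 peaks in the knockdown list and 41 in the control list, where no gene had more. The next gene of the control list had 33, and in the knockdown list 241 genes had more than 6. Control peaks were 61 to 721 bases long with enrichments of 1.32 to 20.6 and a median of 6.11, and knockdown peaks were 61 to 361 bases long with enrichments of 4.22 to 9.70 and a median of 6.31. By the distance of their centres from the RefSeq start, 1 of 6 knockdown and 5 of 41 control peaks lay within 30 kb, 2 and 8 between 30 and 50 kb, 3 and 24 between 50 and 70 kb, and 0 and 4 beyond 70 kb. The control peak with the highest enrichment, 20.6, was chr11:2646932-2647262, and the widest was chr11:2642523-2643243 at 10.7. The knockdown peak with the highest enrichment, 9.70 at chr11:2647352-2647472, lay between control peaks and overlapped none of them.

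The other 5 knockdown peaks of KCNQ1OT1 each overlapped a control peak. They stood at 4.22 against 3.66 in control near 8 kb from the start, at 6.87 against 7.25 and at 6.16 against 5.20 near 40 kb, at 5.93 against 13.7 near 60 kb and at 6.47 against 16.8 near 66 kb. Many of these calls were weak: 1 of 6 knockdown and 11 of 41 control peaks had an adjusted p above 0.05, and 3 of 6 and 10 of 41 had one of at most 1e-05. The knockdown peak above 0.05 was that at 6.47, which was 61 bases long against 541 for the control peak at 16.8. Over the whole lists there were 28891 knockdown and 39492 control peaks. Its RNA level was 2.03-fold lower in knockdown input, and the part of that level, of its length or of depth in the number of peaks was not tested.

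**Figure D3:**
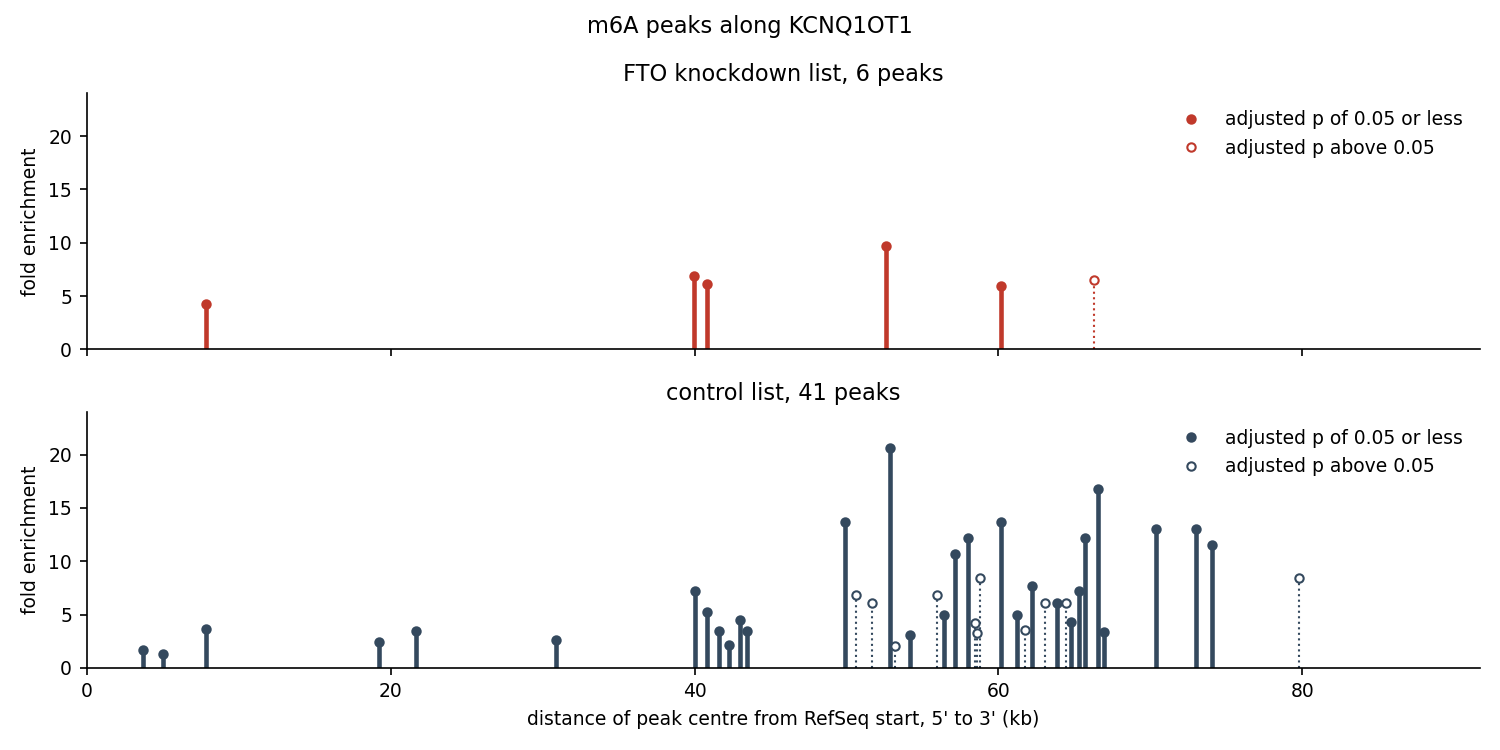
Peaks along KCNQ1OT1, 6 in the knockdown list (upper panel) and 41 in the control list (lower panel), at the distance of their centre from the RefSeq start in kb and with the authors' fold enrichment as height. Open points have an adjusted p above 0.05; control peaks are densest between 50 and 70 kb.

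By gene name, 19 of 21 knockdown peaks of the 7 RNAs (90.5%) overlapped a control peak by at least 1 base. In the other direction 17 of 60 control peaks (28.3%) overlapped a knockdown peak. These counts take in both listings of the NEAT1 peaks, and peaks that bear a member's name but were called on another gene model, such as FRMD8 or CHP1. They leave out peaks on the RNAs' own models under the names AC004542, AC087721, AP000944, AP000769 and MIR612. Over the whole lists the shares were 88.7% of knockdown and 57.7% of control peaks. Without KCNQ1OT1, 14 of 15 knockdown and 12 of 19 control peaks overlapped.

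The authors' deposited table of differential m6A had rows for 4 of the 7 RNAs, and TUG1, OIP5-AS1 and GAS5 had none. Its p-values are copied, and the sources used here do not say whether they measure the spread among libraries. The 12 rows were 9 separate regions, because the 3 regions of NEAT1 were each listed 2 times. The table does not state the direction of its log2 values. Its expression log2 values equal control over knockdown when recomputed from FPKM, and over 4178 rows with 1 peak in each list its m6A values ran against the knockdown over control ratio of the enrichments (Spearman's rho -0.857 across regions, which share libraries and genes). The values below are therefore turned to knockdown over control. In that direction 10 of the 12 rows, or 8 of the 9 regions, were lower after knockdown. Of all rows in the authors' deposited table, those without a gene name included, 44.9% were lower.

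On NEAT1 the authors' deposited table gave different signs along the RNA. The region at the start was 0.26 higher on the log2 scale (adjusted p = 0.000141), although its listed enrichment was 17.4 in knockdown and 21.5 in control. In the authors' deposited table, the region from 0.69 to 2.49 kb was at -0.42 (adjusted p = 2e-96). By the authors' deposited table, the region from 3.18 to 3.48 kb, chr11:65425975-65426274, which had a peak in the control list only, was at -0.86 (adjusted p = 5.01e-23). A further row inside NEAT1 under the name AP000944, chr11:65423960-65424118, was at -0.56 in the authors' deposited table (adjusted p = 2.63e-08).

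Both MALAT1 regions were lower after knockdown in the authors' deposited table. The one from 1.48 to 3.21 kb, chr11:65499214-65500950, was at -0.43 in the authors' deposited table, and the one from 4.71 to 5.34 kb, chr11:65502446-65503075, was at -0.90, which is 0.535 of the control signal. The adjusted p of both is listed at -434 on the log10 scale in the authors' deposited table, the lowest value it holds and one shared by 23 rows.

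The 3 KCNQ1OT1 regions of the authors' deposited table stood at -1.11 (chr11:2645642-2646032, adjusted p = 0.012), -0.58 (chr11:2668889-2669309, adjusted p = 0.0132) and -1.0 (chr11:2678097-2678397, adjusted p = 0.0646). None of them overlapped a knockdown peak of KCNQ1OT1. The NORAD row of the authors' deposited table was the 61-base 3′ region, at -1.02 (adjusted p = 2.51e-05), while the strong 5′ peak of NORAD had no row. Of the 9 regions 8 had an adjusted p under 0.05 in the authors' deposited table. Counted as rows, 9 of the 10 lower and 2 of the 2 higher rows did, as did 88.1% of all its rows, those without a gene name included. Input RNA of NEAT1, MALAT1 and KCNQ1OT1 was also lower after knockdown, the sources used here do not say whether input enters the differential value, and the part of RNA level in these values was not tested.

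**Figure D4:**
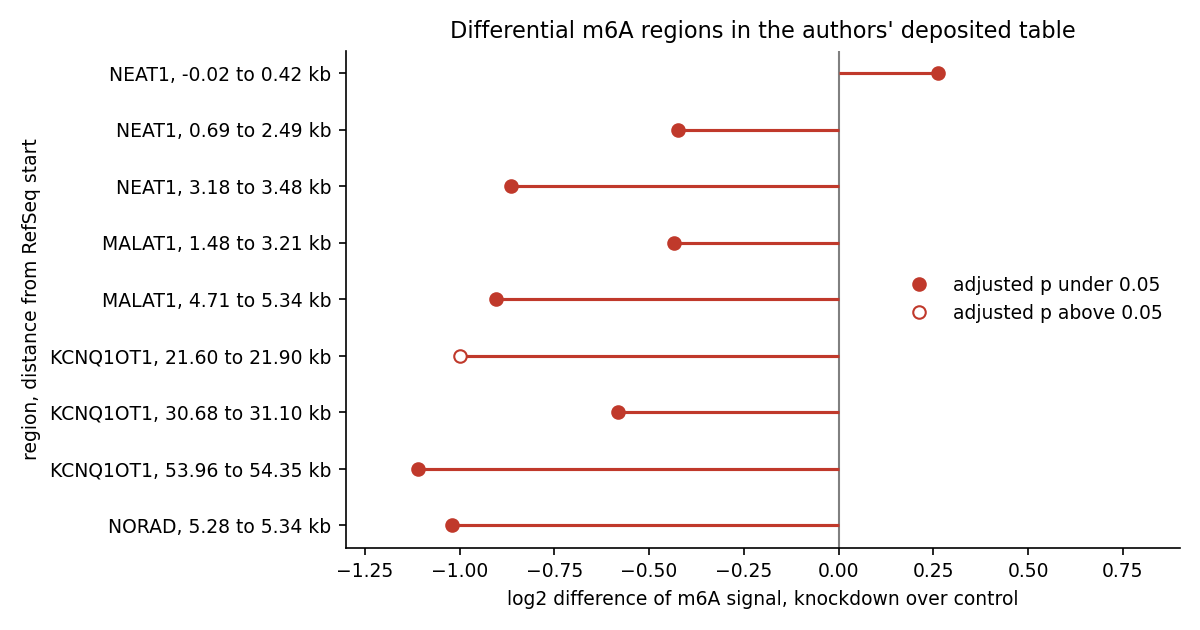
Log2 difference of m6A signal, knockdown over control, for the 9 regions of NEAT1, MALAT1, KCNQ1OT1 and NORAD in the authors' deposited table, labelled by distance from the RefSeq start in kb. The region at the start of NEAT1 lies right of 0 at 0.26 and the other 8 lie between -0.42 and -1.11.

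The authors' deposited table also holds an expression comparison for these RNAs. With its log2 values given as deposited, control over knockdown, that table has KCNQ1OT1 at 1.02 (q = 5.81e-22), NEAT1 at 0.57 (q = 1.15e-06), MALAT1 at 0.38 (q = 0.014) and NORAD at 0.05 (q = 0.3). In its own column of calls, the authors' deposited table marks KCNQ1OT1 as significant and NEAT1, MALAT1 and NORAD as not.

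Genes of paraspeckle proteins, the partners of NEAT1 in its nuclear body, had 6 higher calls and 1 lower call after knockdown. Of 21 listed genes 8 were tested and 1 was not called; over all tested genes 24.5% were higher and 37.9% lower. The list had a median of 0.38 against -0.07 over all tested genes. UBAP2L had 36.5 to 37.9 FPKM in knockdown and 22.6 to 23.4 FPKM in control libraries (log2 difference 0.67, limma adjusted p = 1.28e-05). SFPQ, which NEAT1 binds directly, had 29.1 to 31.2 FPKM in knockdown and 17.4 to 19.1 FPKM in control libraries (log2 difference 0.69, limma adjusted p = 2.92e-05). These counts were also 6 higher and 1 lower after quantile normalization, where 1420 of all 4515 genes were higher and 1294 lower, and after median-centring, where 1507 were higher and 1213 lower.

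Of 22 genes of the m6A machinery 12 were tested, 1 was higher, 6 were lower and 5 were not called, with a median of -0.11. The 6 include FTO itself, which was knocked down, and over all tested genes 24.5% were higher and 37.9% lower, so the other 5 of 11 are near that share. HNRNPC, which binds RNA opened by m6A and is also a partner of MALAT1, had 51.4 to 57.6 FPKM in knockdown and 65.1 to 69.2 FPKM in control libraries (log2 difference -0.28, limma adjusted p = 0.00262). The counts of this list moved with scaling, to 1 higher and 4 lower after quantile normalization and 2 higher and 3 lower after median-centring.

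Of 21 protein partners of the 7 RNAs, a list that shares HNRNPC, METTL16 and RBMX with the m6A machinery, 7 were tested, with 4 higher, 2 lower and 1 not called, beside 24.5% higher and 37.9% lower over all tested genes. DNMT1, the maintenance DNA methyltransferase, had 38.7 to 39.8 FPKM in knockdown and 31.7 to 33.2 FPKM in control libraries (log2 difference 0.27, limma adjusted p = 0.000474). SRRM2, a core protein of nuclear speckles, had 57.7 to 61.5 FPKM in knockdown and 48.6 to 49.9 FPKM in control libraries (log2 difference 0.28, limma adjusted p = 0.000532). The median of this list was 0.23, and 4 were higher and 1 lower after quantile normalization, 5 and 1 after median-centring.

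Of 28 genes near the 7 RNAs 11 were tested, with 2 higher, 2 lower and 7 not called, and a median of -0.05. Over all tested genes 24.5% were higher and 37.9% lower, and with 11 genes the counts were not tested against these shares. TSSC4, from the region of KCNQ1OT1, had 8.01 to 9.24 FPKM in knockdown and 5.37 to 6.12 FPKM in control libraries (log2 difference 0.51, limma adjusted p = 0.000276). CPNE1 had 47.1 to 47.9 FPKM in knockdown and 59.3 to 69.1 FPKM in control libraries (log2 difference -0.40, limma adjusted p = 0.00064). With scaling the list moved to 4 higher and 3 lower (quantile normalization) and 4 higher and 2 lower (median-centring). Over all 4515 tested genes, 1420 were higher and 1294 lower after quantile normalization, and 1507 higher and 1213 lower after median-centring.

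Among 40 other long non-coding RNAs 9 were tested, with 2 higher, 5 lower and 2 not called, and a median of -0.31. Over all tested genes 24.5% were higher and 37.9% lower. The 2 higher calls are near their share, and with 9 genes the 5 lower calls were not tested against theirs. LINC00963 had 4.18 to 4.26 FPKM in knockdown and 6.79 to 7.16 FPKM in control libraries (log2 difference -0.62, limma adjusted p = 2.45e-05). LINC00662 had 1.42 to 1.62 FPKM in knockdown and 2.39 to 3.02 FPKM in control libraries (log2 difference -0.57, limma adjusted p = 0.000421). After quantile normalization 2 were higher and 4 lower, and after median-centring 2 and 3. Of 23 host genes of small nucleolar RNAs, the class of GAS5, SNHG12 alone was tested, and it was higher at 5.57 to 6.05 FPKM in knockdown against 4.41 to 4.79 FPKM in control libraries (log2 difference 0.26, limma adjusted p = 0.00293).

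**Figure D5:**
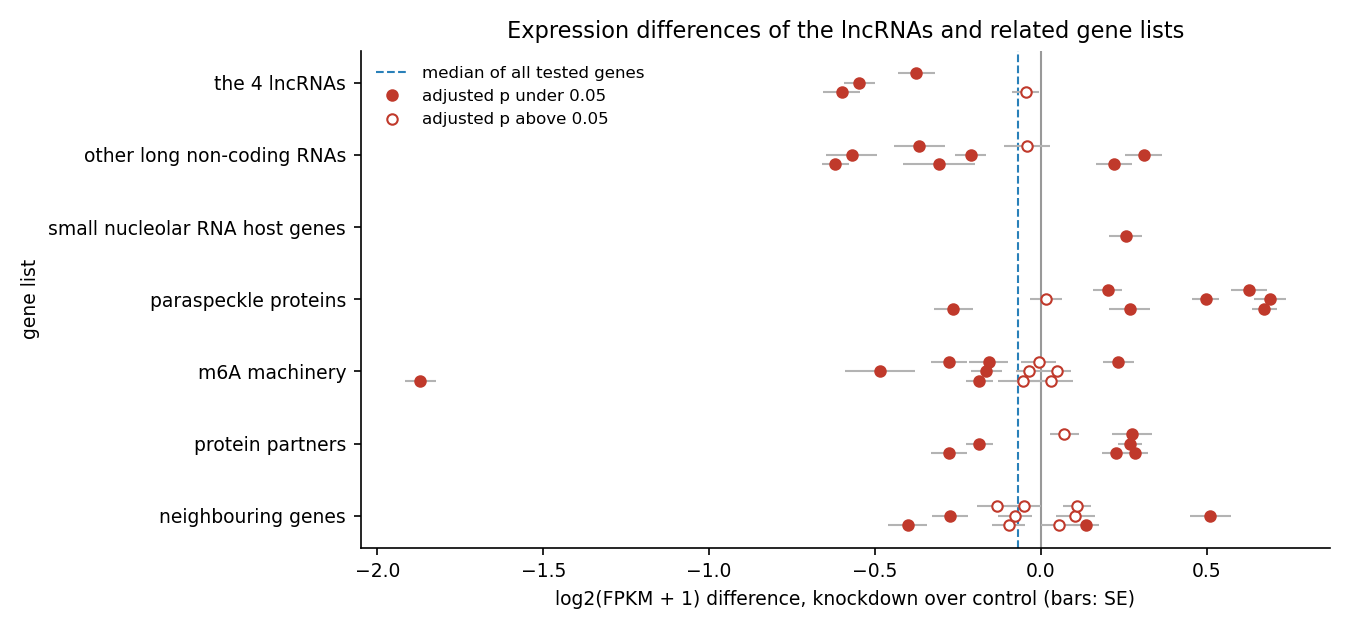
Difference of log2(FPKM + 1), knockdown over control, with its SE, for the 4 listed lncRNAs and 6 gene lists; filled points have an adjusted p under 0.05 and the dashed line is the median of all tested genes (-0.07). RMRP is left out of the other long non-coding RNAs for its wide error; 6 of 8 paraspeckle protein genes lie to the right with filled points.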

How the data were processed

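Poly(A) RNA of HGC27 cells was fragmented and sequenced with and without m6A immunoprecipitation, per the labels' protocols. The submitters' processing notes name Bowtie 0.12.2, HISAT2 2.0 and StringTie 1.3.0, without roles, and the build mm8, which is a mouse build; the deposited positions are human, since 99.1% of 24159 listed transcripts overlapped the RefSeq gene of their symbol on GRCh38.p14. The peak caller is not given in the sources used here. The authors deposited FPKM of the 6 input libraries, for genes with a differential m6A peak. Per the file headers, the deposited peak lists hold a fold enrichment and log10 p and adjusted p scores, with 1 list per condition, and the differential table holds log2 values, p-values and q-values. Starts were deposited counting from 0 and are given counting from 1.

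FPKM were tested with limma 3.58.1 (R 4.3.3) on log2(FPKM + 1) over all genes that averaged 1 FPKM or more, 3 knockdown against 3 control libraries with no further covariate, and Benjamini-Hochberg adjustment at 0.05. The test was checked on simulated data. Depth is unknown, so no counting intervals are given. Peaks overlapped when at least 1 base of their blocks was shared on the same strand, that of the gene model. Peaks were counted by gene name and, beside that, by gene model. The 283 differential rows without a gene name held p above 1 and were not used for genes. Genes named beside the 7 RNAs are FTO, the 3 nearest by expression to each tested RNA, and the 2 of each gene list with the smallest p; marker genes and those given for the overlap of a peak with another gene are named besides. Alternatives were other scalings, filters and pseudocounts, a replicate block, and each library left out. The 7 RNAs and the lists were chosen with earlier results of these data known.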

Additional observations from a re-analysis of the deposited data

How the results depend on the processing

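NEAT1, MALAT1 and KCNQ1OT1 stayed lower after knockdown with an adjusted p under 0.05 (limma) in every alternative that tested them, 13, 13 and 12 settings, with log2 differences of -0.60 to -0.46, -0.41 to -0.26 and -0.95 to -0.43; a minimum of 5 FPKM left KCNQ1OT1 out. NORAD was called in 0 of 13, between -0.11 and 0.05, and its sign turned, at 0.047, after median-centring, which shifts all genes by one amount per library. Without 1 library, 942 to 1170 genes were called higher and 1462 to 1848 lower, and the 3 calls among the lncRNAs remained 3. A minimum of 5 FPKM, which tested 2390 genes, called 830 higher and 773 lower, with a median difference of 0.004. Same-numbered libraries did not deviate together (correlations of -0.08 to 0.03), and a replicate block gave 1074 higher, 1673 lower and 3 of the lncRNAs. An adjusted p of at most 1e-05 left 17 of the 21 knockdown peaks and 28 of the 60 control peaks, 50% reciprocal overlap left 10 knockdown and 10 control peaks as shared, and a 2-fold minimum left 3 lower and 0 higher differential rows. Counting overlapping rows once, an alternative added after seeing the data, left 1 higher region. Added likewise were counts of peaks called on the RNAs' own gene models, 29 in knockdown and 62 in control. Overlapping peaks counted once, also added then, numbered 16 in knockdown and 55 in control. Unknown depth and 1 peak list per condition limit what low enrichments and missing peaks show.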

Other observations

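RMRP, the RNA of a mitochondrial RNA processing enzyme and one of the other long non-coding RNAs, had 3.65, 2.83 and 27.5 FPKM in knockdown libraries, against 5.36, 535 and 3.45 FPKM in control libraries. Its groups overlapped and it was not called (limma adjusted p = 0.433). The mesenchymal marker VIM had no peak in the knockdown list and had one in the control list. Epithelial markers with a peak numbered 2 of 5 in each list, and gastric ones 1 of 5 in knockdown and 2 of 5 in control. Fibroblast markers with a peak numbered 4 of 5 in knockdown and 5 of 5 in control, and immune ones 1 of 4 in each list. Of 23 host genes of small nucleolar RNAs, 2 had a peak in the knockdown list and 5 in the control list, and of 21 paraspeckle protein genes 17 had one in the knockdown list and 20 in the control list. Of the 40 other long non-coding RNAs, 22 had a peak in the knockdown list and 28 in the control list. Over all genes the lists named 14170 in knockdown and 18324 in control, so fewer genes with a peak in knockdown is the case for the lists as a whole.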
